A study of Mus musculus with 6 samples.

Results

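Metallothioneins are small cysteine-rich proteins that bind zinc and copper, and the mouse genome holds 4 of their genes side by side on chromosome 8. The set described here was the 3 genes Mt1, Mt2 and Mt3, of the 17042 genes listed in all 6 tables of single-cell counts from mouse spinal cord. The genes were taken by name and chosen by their measured levels in these libraries: their unique molecular identifiers (UMIs, each standing for 1 captured RNA molecule) per library and per cell class in the 3 groups. Those levels and their group differences are therefore given as a description. Where a call of the fit over all genes is mentioned for them, nothing is read from it. Mt4, which is known from stratified squamous epithelium, was listed in the replicate 2 tables alone and had 0 UMIs in them.

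Mt1 and Mt2 are expressed in many tissues and are induced by zinc, other heavy metals, glucocorticoids and oxidative stress. The zinc-sensing transcription factor Mtf1 drives them by binding metal response elements in their promoters. Mt3, first described as growth inhibitory factor, is the form enriched in brain and spinal cord and responds little to metals. In the healthy central nervous system astrocytes are the best known source of Mt1 and Mt2.

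The libraries came from spinal cords dissociated with Accutase, cleared of myelin and purified as live cells on a density gradient, then captured with Drop-seq, in which single cells share droplets with barcoded beads. The 3 groups had 2 libraries each: SOD1-G93A mice given Necrostatin-1s (SOD1-Nec), SOD1-G93A mice given vehicle (SOD1-Veh) and wild-type mice given vehicle (WT-Veh). SOD1-G93A mice carry a mutant human SOD1 gene and are used as a model of amyotrophic lateral sclerosis, and Necrostatin-1s inhibits the kinase RIPK1. The labels gave no age, sex, dose, vehicle or number of animals per library, so p-values measured the spread between these libraries, which may be technical.

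Barcodes were kept with at least 200 genes and at most 20% mitochondrial UMIs. After 29 predicted doublets were removed, 3331 of 21919 barcodes remained, with 430002 to 650940 UMIs per library and medians of 524 to 727 UMIs per cell. Sod1 had 4303 and 5063 UPM (UMIs per 1000000 UMIs other than haemoglobin) in SOD1-Nec libraries, 4827 and 6572 in SOD1-Veh libraries, and 296.9 and 202.8 in WT-Veh libraries, so the libraries followed their genotype labels. The labelled tissue was only part of what was captured: B-cell-like (479), erythroid-like (487) and neutrophil-like (413) barcodes stood beside microglia-like (636), oligodendrocyte-like (209) and astrocyte-like (116) ones. Some libraries stood apart. All 63 skeletal-muscle-like barcodes were in SOD1-Veh libraries (16 and 47), and 162 of 253 neuron-like barcodes were in WT-Veh replicate 2. Libraries shared 4 to 9 barcodes per pair, of which 1 was retained. All levels are in UPM. Haemoglobin took 11.2% to 16.5% of UMIs in retained cells, but 30.1% to 77.7% in barcodes with under 100 genes. These barcodes served as a measure of free RNA and are called so below. Whether they were droplets without a cell or cells with few genes, such as red cells, was not tested. Intervals cover counting error alone. Where groups of 2 libraries are said not to overlap, the share of all genes that separate likewise is not given. Nothing is read from such a separation.

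The promoters are printed because the known induction of Mt1 and Mt2 by metals runs through short elements in them. The 3 printed windows hold the core of these elements in different numbers. The sequences are from RefSeq on GRCm38.p6, plus strand, from 250 bases before to 50 bases after the gene start, at chr8:94178839-94179138 for Mt1, chr8:94172368-94172667 for Mt2 and chr8:94152357-94152656 for Mt3. Capitals mark the metal response element core, searched on both strands as TGCACNC or TGCGCNC.
Mt1: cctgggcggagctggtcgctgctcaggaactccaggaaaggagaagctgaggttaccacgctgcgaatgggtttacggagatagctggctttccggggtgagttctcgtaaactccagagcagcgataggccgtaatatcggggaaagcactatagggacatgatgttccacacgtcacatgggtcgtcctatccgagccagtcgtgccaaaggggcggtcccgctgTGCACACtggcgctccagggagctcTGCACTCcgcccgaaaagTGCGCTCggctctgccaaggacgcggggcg
Mt2: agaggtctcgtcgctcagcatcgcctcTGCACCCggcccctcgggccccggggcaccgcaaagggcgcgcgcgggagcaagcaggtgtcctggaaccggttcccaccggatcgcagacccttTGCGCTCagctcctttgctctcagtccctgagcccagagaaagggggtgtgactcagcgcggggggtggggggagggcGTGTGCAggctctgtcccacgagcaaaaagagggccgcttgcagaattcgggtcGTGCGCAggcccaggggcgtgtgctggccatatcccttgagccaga
Mt3: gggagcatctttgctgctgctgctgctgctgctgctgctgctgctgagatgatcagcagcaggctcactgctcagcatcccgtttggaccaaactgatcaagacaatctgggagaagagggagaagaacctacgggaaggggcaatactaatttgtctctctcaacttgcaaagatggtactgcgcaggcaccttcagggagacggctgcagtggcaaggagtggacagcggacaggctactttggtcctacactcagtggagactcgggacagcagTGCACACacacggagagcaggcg
The core occurred 4 times in the Mt2 window, 3 times in the Mt1 window and 1 time in the Mt3 window. Counted from the gene start, the first and last matches began at -223 and 4 for Mt2 and at -23 and 20 for Mt1. The Mt3 match began at 27. Some matches thus lay after the annotated gene start, and elements outside the windows were not counted. Of 27025 promoter windows of that length, 25.6% held at least 1 core, 1.32% at least 3 and 0.281% at least 4. The antioxidant response element core TGACNNNGC occurred 1 time in the Mt2 window and not in the Mt1 and Mt3 windows, and 12.5% of windows held it. It overlapped no metal response element core in the Mt2 window. A match is a string of letters, not a shown binding site. The genes could be told apart by their transcripts: 0.237% of Mt1 stretches of 25 bases, 2.25% of Mt2 stretches and 0.282% of Mt3 stretches also occurred in a transcript of another gene, which was Mt3 for Mt1, Mt1 for Mt3 and Pip5k1a for Mt2.

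Metallothionein RNA stood above free RNA most regularly in astrocyte-like and ependymal-like cells. Fibroblast-like and neuron-like cells were above it for some genes and libraries, but only within counting error. Some single-library values of astrocyte-like and ependymal-like cells were also within counting error of it. Cells were clustered without Mt1, Mt2 and Mt3, and 15 classes were named from markers. Because Drop-seq tags one end of each transcript, levels were compared for each gene across classes and not between genes. Summed over the 6 libraries, Mt1 had 9544 UPM in astrocyte-like cells (exact Poisson 95% interval 8814 to 10320) and 6844 in ependymal-like cells (6310 to 7411). Within libraries the order of these 2 classes was not the same: astrocyte-like cells were the higher in 4 of 6 libraries, and ependymal-like cells in both SOD1-Veh libraries, which hold 7 such cells. A single SOD1-Nec barcode, described below, held 296 of the 607 ependymal-like Mt1 UMIs, and without it the ependymal-like level was 6863. Fibroblast-like cells followed with 3494 (2576 to 4632), then endothelial-like cells with 1909 (1624 to 2230), and the other 11 classes had 465.4 to 1672. The intervals of endothelial-like, erythroid-like and oligodendrocyte-like cells overlapped, so their order was not resolved.

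Mt2 had 4515 UPM in astrocyte-like cells (4018 to 5057) and 3991 in ependymal-like cells (3586 to 4430), and each of these 2 classes was the higher in 3 of 6 libraries. Fibroblast-like cells had 1747 (1119 to 2599), from 24 UMIs in 18 cells. Neuron-like cells had 645.9 and erythroid-like cells 574.3, and the other 10 classes had 77.56 to 468.2. Mt3 had 4713 in ependymal-like cells (4272 to 5187), 2537 in astrocyte-like cells (2168 to 2951) and 381.7 or less in each of the other 13 classes. Ependymal-like cells were the higher of the 2 classes in 5 of 6 libraries. The same single barcode held 222 of the 418 ependymal-like Mt3 UMIs, and without it the ependymal-like level was 4325 (3741 to 4975).

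Barcodes with under 100 genes had 3436 to 4501 UPM of Mt1, 825.6 to 1540 of Mt2 and 629.5 to 1183 of Mt3. Astrocyte-like cells were above the free-RNA level of their own library in 6 of 6 libraries for each of the 3 genes. Ependymal-like cells were above it in 6 of 6 libraries for Mt1 and Mt2 and in 5 of 6 for Mt3, the exception being SOD1-Veh replicate 2 with 1 ependymal-like cell. Not all of these values were clear of counting error. In SOD1-Veh replicate 1 astrocyte-like Mt2 was 1553 (826.7 to 2655) against 927.6. Ependymal-like Mt1 was 4130 (2766 to 5932) against 3838 in SOD1-Nec replicate 2. In SOD1-Veh replicate 2 ependymal-like Mt2 was 5249 (635.7 to 18960) against 970.0. Fibroblast-like cells were above the free-RNA level in 2 of 4 libraries for Mt1 and 4 of 4 for Mt2. Neuron-like cells were above it in 2 of 6 libraries for Mt2 and 1 of 6 for Mt3. In SOD1-Nec replicate 1 their Mt2 was 1023 (528.8 to 1788) against 825.6, and their Mt3 682.2 (294.5 to 1344) against 629.5. In SOD1-Nec replicate 2 their Mt2 was 1102 (300.3 to 2822) against 978.5. Fibroblast-like Mt2 rested on 2 to 11 UMIs per library. Where fibroblast-like or neuron-like cells were above free RNA, the interval included the free-RNA level each time. No other class was above the free-RNA level in any library for any of the 3 genes. Metallothionein levels in classes other than astrocyte-like and ependymal-like cells are not read as expression there. Astrocyte-like and ependymal-like cells made up 5.19% of retained cells and held 5.05% of their UMIs, but 27.8% of Mt1, 42.9% of Mt2 and 52.6% of Mt3 UMIs. Without the single barcode they held 3.71% of UMIs and 22.7% of Mt1, 35.7% of Mt2 and 40.8% of Mt3 UMIs.

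**Figure D1:**
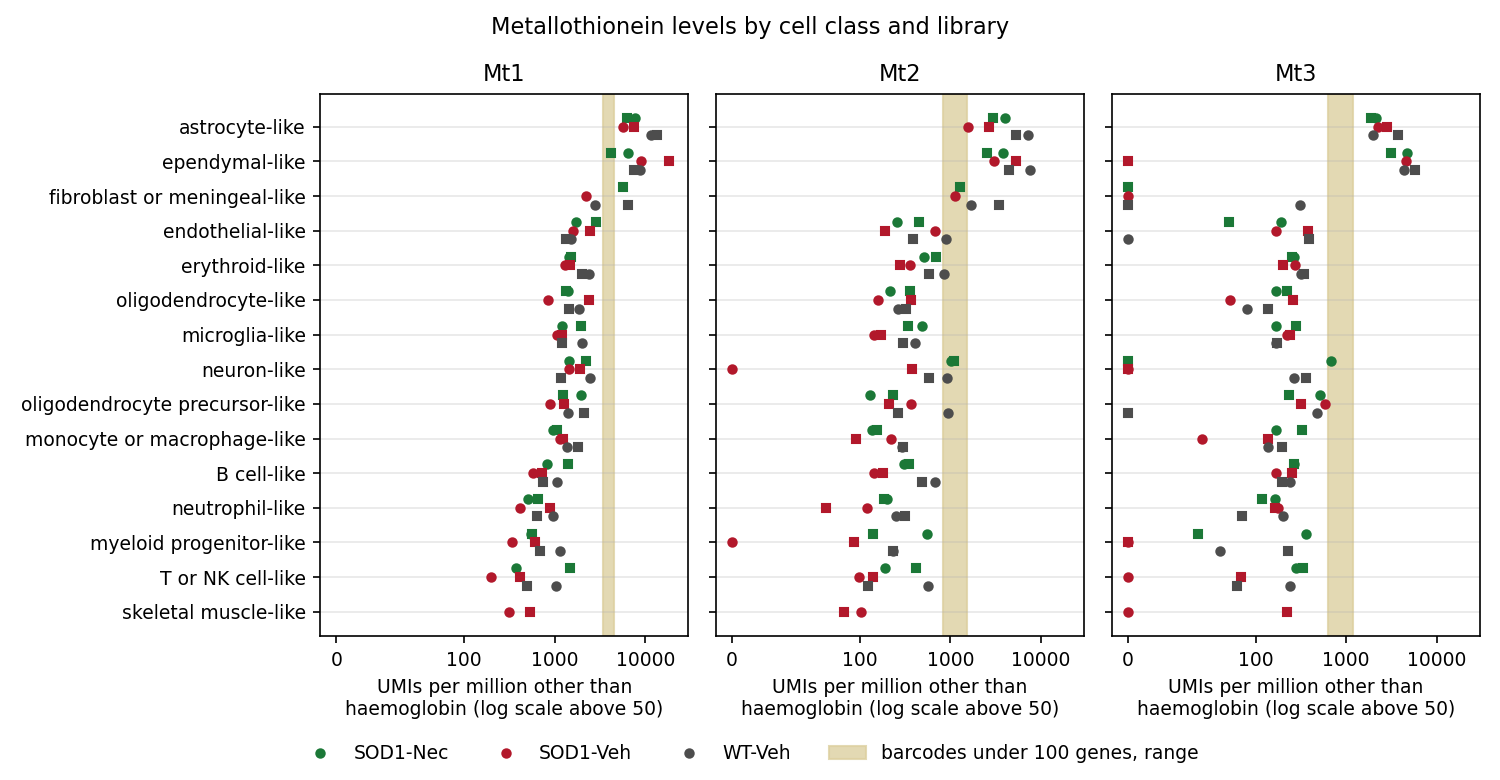
Mt1, Mt2 and Mt3 UPM by cell class, with 1 point per library coloured by group (circles replicate 1, squares replicate 2) and the tan band the range in barcodes under 100 genes. Astrocyte-like points lie at 1553 to 7224 for Mt2, above the free-RNA level of their libraries, though the interval of the lowest point includes that level.

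Over all retained cells, Mt1 and Mt2 were lowest in the vehicle-treated mutant cords. Mt2, a metal-inducible zinc-binding form, had 771.2 and 453.4 UPM in SOD1-Nec libraries, 299.0 and 239.8 in SOD1-Veh libraries, and 845.5 and 691.8 in WT-Veh libraries. Both SOD1-Veh libraries were below the other 4, and the SOD1-Nec range overlapped the WT-Veh range. The fitted log2 fold change of Mt2 was -1.47 ± 0.31 (SE) for SOD1-Veh over WT-Veh, which is 2.77-fold lower in SOD1-Veh. It was 1.17 ± 0.31 for SOD1-Nec over SOD1-Veh, 2.25-fold higher in SOD1-Nec, and -0.30 ± 0.30 for SOD1-Nec over WT-Veh. Each pair of these comparisons shares the libraries of a group.

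Mt1, its neighbour with a like set of inducers, had 1769 and 1533 UPM in SOD1-Nec libraries, 1166 and 1327 in SOD1-Veh libraries, and 2119 and 1848 in WT-Veh libraries. The 3 groups did not overlap and stood in the same order as for the Mt2 means, but the differences were smaller. The log2 fold change of Mt1 was -0.63 ± 0.26 (SE) for SOD1-Veh over WT-Veh, 0.39 ± 0.26 for SOD1-Nec over SOD1-Veh and -0.24 ± 0.26 for SOD1-Nec over WT-Veh. Mt3, the form enriched in the nervous system, had 758.5 and 294.5 UPM in SOD1-Nec libraries, 315.2 and 270.4 in SOD1-Veh libraries, and 320.6 and 495.7 in WT-Veh libraries. SOD1-Nec replicate 1 was the highest of the 6 libraries, and the SOD1-Nec range overlapped both other groups. The log2 fold change of Mt3 was -0.44 ± 0.39 (SE) for SOD1-Veh over WT-Veh, 0.83 ± 0.39 for SOD1-Nec over SOD1-Veh and 0.39 ± 0.38 for SOD1-Nec over WT-Veh.

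In the fit over 7482 genes (edgeR quasi-likelihood F test, Benjamini-Hochberg adjusted p under 0.05), 0.829% of genes passed for SOD1-Veh over WT-Veh, 0.548% for SOD1-Nec over SOD1-Veh and 0.0401% for SOD1-Nec over WT-Veh. Of the 9 metallothionein values, 1 passed, which was Mt2 for SOD1-Veh over WT-Veh. The genes were chosen by these contrasts, so nothing is read from that count. The call was lost when SOD1-Veh replicate 1, SOD1-Veh replicate 2 or WT-Veh replicate 1 was left out, and without the muscle-like barcodes (log2 fold change -1.44). The replicate 1 tables listed 18169 genes and 18650 were in those of replicate 2, so each set was also compared alone. The log2 ratio of Mt2 for SOD1-Veh over WT-Veh was -1.50 in replicate 1 and -1.53 in replicate 2, and for SOD1-Nec over SOD1-Veh it was 1.37 and 0.919. The log2 ratio of Mt3 for SOD1-Nec over WT-Veh was 1.24 in replicate 1 and -0.751 in replicate 2, opposite signs.

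**Figure D2:**
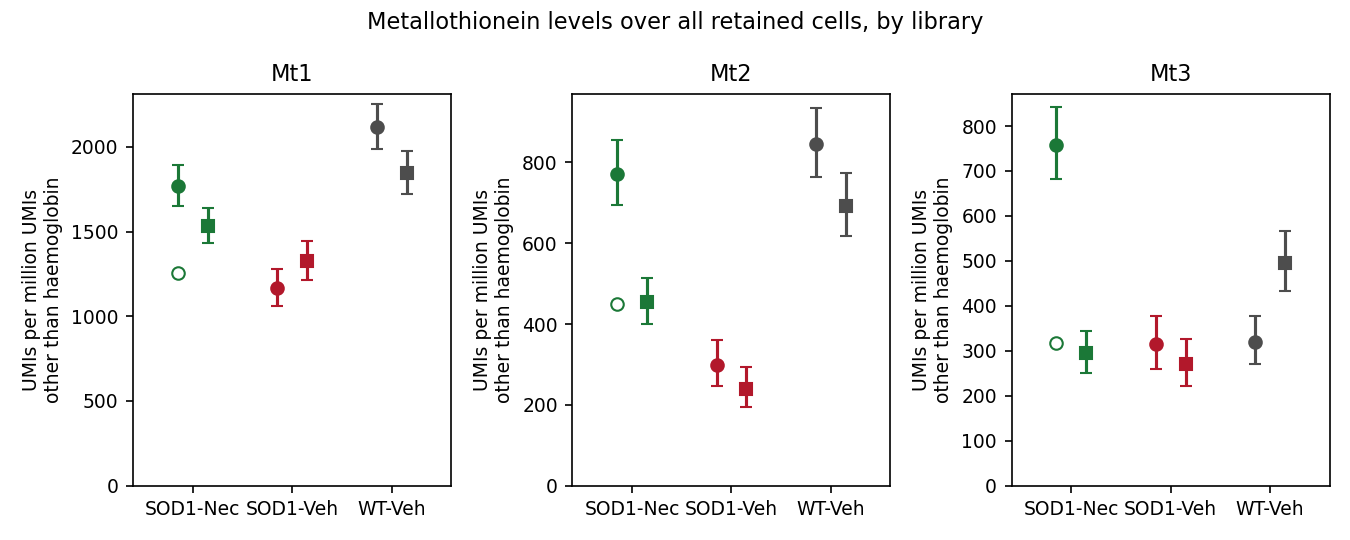
Mt1, Mt2 and Mt3 UPM over all retained cells, by library, with circles for replicate 1, squares for replicate 2 and an open circle for SOD1-Nec replicate 1 without its largest barcode. Mt2 lies at 299.0 and 239.8 in SOD1-Veh, below both other groups.

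One barcode set much of the SOD1-Nec level. It was ependymal-like, in SOD1-Nec replicate 1, with 43509 UMIs from 8044 genes, where the next largest retained barcode of that library had 8783 UMIs. It carried 485 UMIs of ependymal markers and 306 of astrocyte markers, and it was not among the predicted doublets. It held 8.19% of its library's retained UMIs but 35.4% of the library's Mt1 UMIs, 47.0% of its Mt2 UMIs and 62.0% of its Mt3 UMIs. Without it SOD1-Nec replicate 1 had 1258 UPM of Mt1, 450.3 of Mt2 and 317.3 of Mt3. Mt1 then overlapped the SOD1-Veh libraries. Mt2 remained above both of them and below both WT-Veh libraries. Without this barcode the log2 fold change for SOD1-Nec over SOD1-Veh was 0.75 for Mt2, 0.06 for Mt3 and 0.16 for Mt1. For SOD1-Nec over WT-Veh it was -0.72 for Mt2, -0.46 for Mt1 and -0.36 for Mt3, the last of opposite sign to the value with the barcode.

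A sum over all cells moves with the share of each class, and there fewer astrocytes and less RNA per astrocyte cannot be told apart. Astrocyte-like cells numbered 10 and 13 in SOD1-Nec libraries, 19 and 17 in SOD1-Veh libraries, and 28 and 29 in WT-Veh libraries. Astrocyte-like and ependymal-like cells together held 44.0% of Mt2 UMIs in SOD1-Nec cells, 30.7% in SOD1-Veh cells and 45.4% in WT-Veh cells. Without the largest barcode the SOD1-Nec share was 22.6%, below that of SOD1-Veh cells. Astrocyte markers over all retained cells summed to 3930 and 3556 UPM in SOD1-Nec libraries, 3109 and 2885 in SOD1-Veh libraries, and 4114 and 4160 in WT-Veh libraries. These groups did not overlap and stood in the same order as for Mt1. With astrocyte-like and ependymal-like cells left out, astrocyte markers summed to 3158 and 2841 UPM in SOD1-Nec libraries, 2125 and 2152 in SOD1-Veh libraries, and 2445 and 2668 in WT-Veh libraries. Mt2 then had 345.6 and 374.5 UPM in SOD1-Nec libraries, 208.5 and 177.8 in SOD1-Veh libraries, and 484.0 and 406.5 in WT-Veh libraries. With both classes left out, the log2 fold change of Mt2 for SOD1-Veh over WT-Veh was -1.21 and no longer passed the threshold. The part of astrocyte RNA outside those classes in the result was not tested.

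Within astrocyte-like cells, Mt1 and Mt2 were lower in both mutant groups than in wild type. Mt2 had 3996 and 2970 UPM in SOD1-Nec libraries, 1553 and 2640 in SOD1-Veh libraries, and 7224 and 5291 in WT-Veh libraries. The 3 groups did not overlap. Mt1 had 7757 and 6299 UPM in SOD1-Nec libraries, 5733 and 7481 in SOD1-Veh libraries, and 11490 and 13430 in WT-Veh libraries. Both WT-Veh libraries were above the other 4, and the mutant groups overlapped. Mt3 had 2116 and 1890 UPM in SOD1-Nec libraries, 2269 and 2860 in SOD1-Veh libraries, and 1970 and 3770 in WT-Veh libraries, with the WT-Veh range spanning most of the others.

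The log2 fold change in astrocyte-like cells for SOD1-Veh over WT-Veh was -1.56 ± 0.41 (SE) for Mt2, -0.89 ± 0.34 for Mt1 and -0.11 ± 0.39 for Mt3. For SOD1-Nec over SOD1-Veh it was 0.69 ± 0.44 for Mt2, 0.08 ± 0.35 for Mt1 and -0.39 ± 0.43 for Mt3. For SOD1-Nec over WT-Veh it was -0.87 ± 0.41 for Mt2, -0.81 ± 0.35 for Mt1 and -0.50 ± 0.41 for Mt3. These fits held 146 genes, of which 0.0% passed for SOD1-Veh over WT-Veh, 1.37% for SOD1-Nec over SOD1-Veh and 0.685% for SOD1-Nec over WT-Veh. No metallothionein passed. Astrocyte markers summed to 42780 and 34920 UPM in SOD1-Nec libraries, 41920 and 33880 in SOD1-Veh libraries, and 43560 and 42520 in WT-Veh libraries, with 12 or 13 of the 13 listed markers detected in each. Ependymal markers were at 0 in 4 of the 6 libraries and reached 110.0 at most. Oligodendrocyte markers were high, at 24920 and 18720 UPM in SOD1-Nec libraries, 22930 and 23540 in SOD1-Veh libraries, and 15930 and 21630 in WT-Veh libraries. For these SOD1-Veh was above WT-Veh, and SOD1-Nec overlapped both. Neuron markers were at 3291 and 1710 in SOD1-Nec, 1075 and 1210 in SOD1-Veh, and 1368 and 3373 in WT-Veh. The part of RNA from other cells in the Mt1 and Mt2 values was not tested. Haemoglobin took 4.02% and 15% of UMIs in SOD1-Nec astrocyte-like cells, 0.511% and 0.699% in SOD1-Veh ones, and 2.67% and 0.761% in WT-Veh ones. With the haemoglobin genes left out of the fit, the log2 fold change for SOD1-Veh over WT-Veh was -1.46 for Mt2 and -0.80 for Mt1, and for SOD1-Nec over WT-Veh -0.78 for Mt2 and -0.73 for Mt1.

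Most barcodes assigned to astrocytes by marker UMIs alone were not among the retained cells. Assigned by marker UMIs among barcodes with at least 200 genes and any mitochondrial share, astrocyte barcodes numbered 151 and 151 in SOD1-Nec libraries, 225 and 156 in SOD1-Veh libraries, and 198 and 210 in WT-Veh libraries, of which 115 to 198 per library had over 20% mitochondrial UMIs. Mt2 had 1454 and 1537 UPM in these barcodes in SOD1-Nec libraries, 1473 and 1658 in SOD1-Veh libraries, and 3124 and 2519 in WT-Veh libraries. Mt1 had 5351 and 5307 UPM in SOD1-Nec libraries, 5520 and 5547 in SOD1-Veh libraries, and 7547 and 6506 in WT-Veh libraries. Both WT-Veh libraries were above all 4 mutant libraries for both genes. The log2 fold changes for SOD1-Veh over WT-Veh were smaller than in the retained astrocyte-like cells, at -0.79 ± 0.22 (SE) for Mt2 and -0.29 ± 0.19 for Mt1. For SOD1-Nec over WT-Veh they were -0.90 ± 0.22 for Mt2 and -0.39 ± 0.19 for Mt1. This assignment was added after the data were seen and needed at least 3 marker UMIs. Astrocyte markers summed to 19700 and 18730 UPM in these SOD1-Nec barcodes, 20670 and 18580 in SOD1-Veh ones, and 21670 and 25860 in WT-Veh ones. These sums lay between free RNA, with 9467 to 12760, and retained astrocyte-like cells, with 33880 to 43560. Free RNA also had more Mt2 in WT-Veh libraries, as given below. The part of free RNA in these barcodes was not tested.

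Cell by cell, an Mt2 UMI was present in 15 of 23 astrocyte-like cells of SOD1-Nec, 23 of 36 of SOD1-Veh and 48 of 57 of WT-Veh. The highest count in a cell was 9 Mt2 UMIs in SOD1-Nec, 3 in SOD1-Veh and 22 in WT-Veh. Thinned to 500 UMIs per cell, the share with an Mt2 UMI was 81.8% in SOD1-Nec (11 cells), 76.9% in SOD1-Veh (13 cells) and 84.0% in WT-Veh (25 cells). Unthinned it was 65.2% in SOD1-Nec, 63.9% in SOD1-Veh and 84.2% in WT-Veh. The thinning left out 12 cells of SOD1-Nec, 23 of SOD1-Veh and 32 of WT-Veh, so no order is read from these shares. In neutrophil-like cells, whose Mt2 was under the free-RNA level in every library, the thinned share was 7.83% in SOD1-Nec, 6.17% in SOD1-Veh and 11.8% in WT-Veh. Median depth was 426 UMIs in astrocyte-like and 627 in neutrophil-like cells of SOD1-Nec, 408.5 and 674 in those of SOD1-Veh, and 468 and 729 in those of WT-Veh. All 3 genes were found together in 9 of 23 astrocyte-like cells of SOD1-Nec, 17 of 36 of SOD1-Veh and 33 of 57 of WT-Veh.

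Ependymal cells line the central canal, and the ependymal-like class was too small for a fit, with 17 and 13 cells in SOD1-Nec libraries, 6 and 1 in SOD1-Veh libraries, and 8 and 12 in WT-Veh libraries. Mt1 had 6455 and 4130 UPM in SOD1-Nec libraries, 8872 and 18370 in SOD1-Veh libraries, and 8723 and 7407 in WT-Veh libraries. Here the SOD1-Veh values were the highest and the SOD1-Nec values the lowest, but the order was not resolved. The value of SOD1-Veh replicate 2 was 7 UMIs in 1 cell. The interval of SOD1-Veh replicate 1 (6929 to 11190) overlapped that of WT-Veh replicate 1 (6589 to 11330). Mt2 had 3784 and 2564 UPM in SOD1-Nec libraries, 2999 and 5249 in SOD1-Veh libraries, and 7477 and 4475 in WT-Veh libraries. The SOD1-Veh values rest on 7 cells and overlapped both other groups. Mt3 had 4749 and 3133 UPM in SOD1-Nec libraries, 4623 and 0 in SOD1-Veh libraries, and 4361 and 5787 in WT-Veh libraries, and the groups overlapped. Without its largest barcode SOD1-Nec replicate 1 had 4938 UPM of Mt1, 3134 of Mt2 and 3229 of Mt3 from 16 ependymal-like cells.

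In microglia-like cells, Mt2 was lowest in SOD1-Veh, but at levels under that of free RNA. It had 489.4 and 338.9 UPM in SOD1-Nec libraries (38 and 33 UMIs), 141.5 and 171.5 in SOD1-Veh libraries (12 and 12 UMIs), and 402.8 and 300.4 in WT-Veh libraries (31 and 26 UMIs). Both SOD1-Veh libraries were below the other 4, while SOD1-Nec and WT-Veh overlapped. The log2 fold change was 1.38 ± 0.38 (SE) for SOD1-Nec over SOD1-Veh, 2.59-fold higher in SOD1-Nec, then -1.14 ± 0.39 for SOD1-Veh over WT-Veh and 0.23 ± 0.33 for SOD1-Nec over WT-Veh. In microglia-like cells 3.42% of 1548 genes passed for SOD1-Nec over SOD1-Veh, 2.39% for SOD1-Veh over WT-Veh and 6.2% for SOD1-Nec over WT-Veh. Mt2 was among those that passed for SOD1-Nec over SOD1-Veh, and nothing is read from it because the rule used the contrast. With single libraries left out, its call was kept in 3 of 6 fits.

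Markers of some other cells were also lowest in SOD1-Veh microglia-like cells. Erythroid markers summed to 49630 and 33370 UPM in SOD1-Nec libraries, with 10 of 10 markers detected, 2841 and 5345 in SOD1-Veh libraries, with 8 and 7 detected, and 10070 and 16770 in WT-Veh libraries, with 5 and 8 detected. Astrocyte markers, with at least 12 of 13 detected in each library, summed to 3052 and 2629 UPM in SOD1-Nec libraries, 1780 and 2158 in SOD1-Veh libraries, and 2339 and 2091 in WT-Veh libraries, where SOD1-Veh overlapped WT-Veh. Neuron markers summed to 592.4 and 739.3 UPM in SOD1-Nec libraries, 235.8 and 314.4 in SOD1-Veh libraries, and 883.6 and 1178 in WT-Veh libraries, with 6 to 11 of 14 detected. Other lists had another order. Oligodendrocyte markers, with 10 or 11 of 12 detected, summed to 13200 and 14240 UPM in SOD1-Nec libraries, 10110 and 10500 in SOD1-Veh libraries, and 9174 and 6781 in WT-Veh libraries. Monocyte markers, with 2 to 8 of 12 detected, summed to 759.8 and 975.5 UPM in SOD1-Nec libraries, 624.8 and 514.5 in SOD1-Veh libraries, and 298.9 and 231.0 in WT-Veh libraries. Skeletal muscle markers were highest in SOD1-Veh libraries, at 188.6 and 285.8 UPM with 10 and 7 of 12 detected. They summed to 25.76 and 30.80 in SOD1-Nec libraries, and 12.99 and 34.66 in WT-Veh libraries. Ependymal markers were at 57.76 or less. With the haemoglobin genes left out, the log2 fold change of Mt2 for SOD1-Nec over SOD1-Veh was 1.40, and the part of RNA from other cells in it was not tested.

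Classes whose metallothionein levels lay under free RNA were fitted as well. The log2 fold change of Mt2 for SOD1-Veh over WT-Veh was below 0 in 7 of the 7 classes where Mt2 could be fitted: -1.84 ± 0.45 (SE) in B-cell-like, -1.76 ± 0.54 in neutrophil-like and -1.25 ± 0.37 in erythroid-like cells, besides the astrocyte-like and microglia-like values above, and -0.80 ± 0.73 in monocyte-like and -0.04 ± 0.50 in oligodendrocyte-like cells. The oligodendrocyte-like value shows no direction beyond its error. For SOD1-Nec over SOD1-Veh it was below 0 in 1 of 7 classes and for SOD1-Nec over WT-Veh in 5 of 7. Mt1 was below 0 for SOD1-Veh over WT-Veh in 7 of 8 classes and Mt3 in 3 of 5. These classes share libraries and free RNA and are not independent. In free RNA the log2 ratio of Mt2 for SOD1-Veh over WT-Veh was -0.697 in replicate 1 and -0.667 in replicate 2. The genes were chosen by these contrasts, and the share of all genes with 1 sign over the classes is not given. Nothing is therefore read from these counts of classes. One erythroid-like cluster of 212 cells carried 8851 UPM of astrocyte markers and 3544 of Mt1, against 1943 and 1097 in the other erythroid-like cluster of 275 cells.

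**Figure D3:**
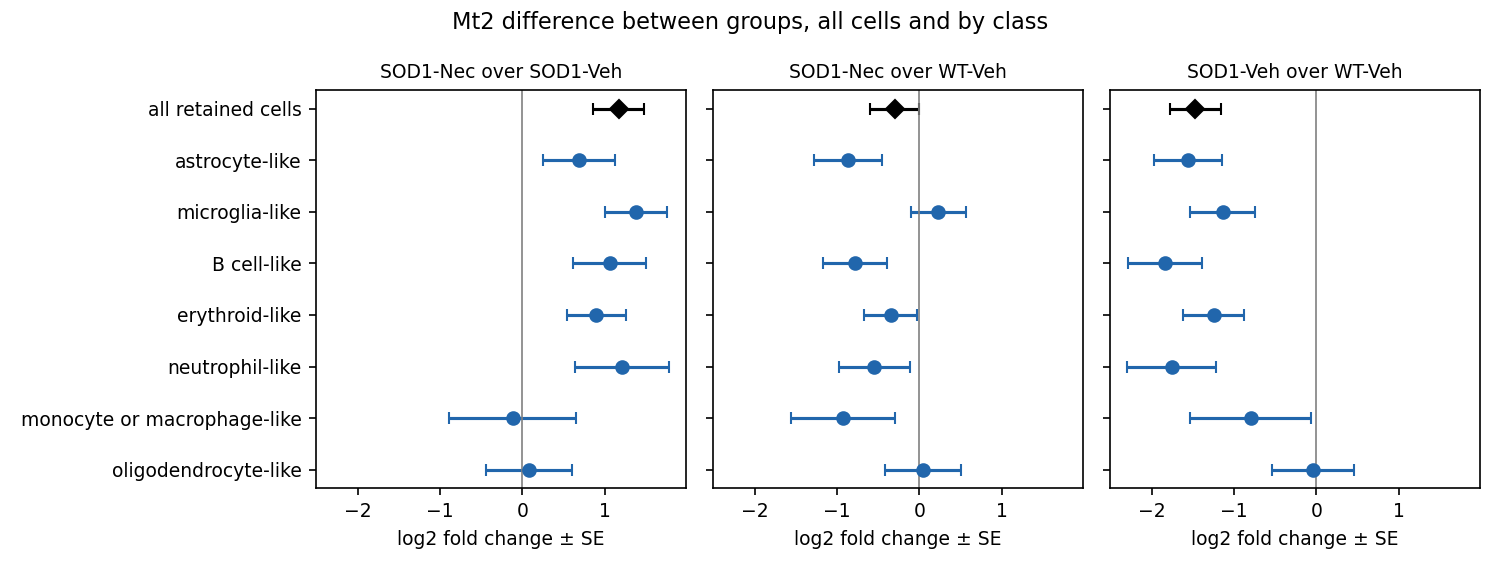
Log2 fold change of Mt2 (x axis) with its standard error in all retained cells and in each class where it was fitted (y axis), for the 3 comparisons. For SOD1-Veh over WT-Veh the class values run from -1.84 to -0.04, and nothing is read from their shared sign.

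The difference between mutant and wild type was also looked for in barcodes that the rule left out, which come from the same libraries. Barcodes with over 20% mitochondrial UMIs, 187 to 276 per library, had 1335 and 1455 UPM of Mt2 in SOD1-Nec libraries, 1413 and 1265 in SOD1-Veh libraries, and 2572 and 2118 in WT-Veh libraries. Both WT-Veh libraries were above all 4 mutant libraries, and SOD1-Nec overlapped SOD1-Veh. The log2 fold change of Mt2 was -0.76 ± 0.24 (SE) for SOD1-Veh over WT-Veh (edgeR adjusted p = 0.322), -0.76 ± 0.24 for SOD1-Nec over WT-Veh (edgeR adjusted p = 0.184) and -0.00025 ± 0.25 for SOD1-Nec over SOD1-Veh (edgeR adjusted p = 0.999). None passed. Of 2062 genes fitted there, 0.339% passed for SOD1-Veh over WT-Veh, 0.824% for SOD1-Nec over SOD1-Veh and 0.0485% for SOD1-Nec over WT-Veh.

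Mt1 in these high-mitochondrial barcodes had 4524 and 4668 UPM in SOD1-Nec libraries, 5231 and 5261 in SOD1-Veh libraries, and 6499 and 5768 in WT-Veh libraries. Mt3 had 1108 and 1354 in SOD1-Nec libraries, 1594 and 1976 in SOD1-Veh libraries, and 2181 and 2491 in WT-Veh libraries. For both genes the 3 groups did not overlap, and SOD1-Nec, not SOD1-Veh, was the lowest. The share of all genes that separate in this way is not given, so nothing is read from it. Astrocyte markers summed to 15580 and 15180 UPM in these SOD1-Nec barcodes, 17570 and 15290 in the SOD1-Veh ones, and 17370 and 22470 in the WT-Veh ones, with neighbouring groups overlapping. Their part in the result was not tested. In free RNA, Mt2 had 825.6 and 978.5 UPM in SOD1-Nec libraries, 927.6 and 970.0 in SOD1-Veh libraries, and 1504 and 1540 in WT-Veh libraries. SOD1-Nec stood above SOD1-Veh in retained cells and overlapped it in the other 2 sets of barcodes, a difference between sets that was not tested.

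The balance of Mt2 against Mt1, a ratio within each library that does not use the haemoglobin-free total, was also lowest in SOD1-Veh retained cells. Mt2 made up 30.36% and 22.82% of Mt1 and Mt2 UMIs in SOD1-Nec retained cells, 20.40% and 15.31% in SOD1-Veh, and 28.52% and 27.24% in WT-Veh. Both SOD1-Veh libraries were below the other 4. Without its largest barcode SOD1-Nec replicate 1 had 26.37%. In barcodes with over 20% mitochondrial UMIs it was 22.78% and 23.76% in SOD1-Nec, 21.26% and 19.38% in SOD1-Veh, and 28.36% and 26.86% in WT-Veh, with no overlap between groups. In free RNA it was 19.37% and 20.32% in SOD1-Nec, 19.52% and 19.56% in SOD1-Veh, and 25.05% and 30.49% in WT-Veh. SOD1-Veh was below WT-Veh in each of these sets of barcodes. With 2 libraries a group, the smallest two-sided exact permutation p is 0.333, so no test of these shares is given.

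**Figure D4:**
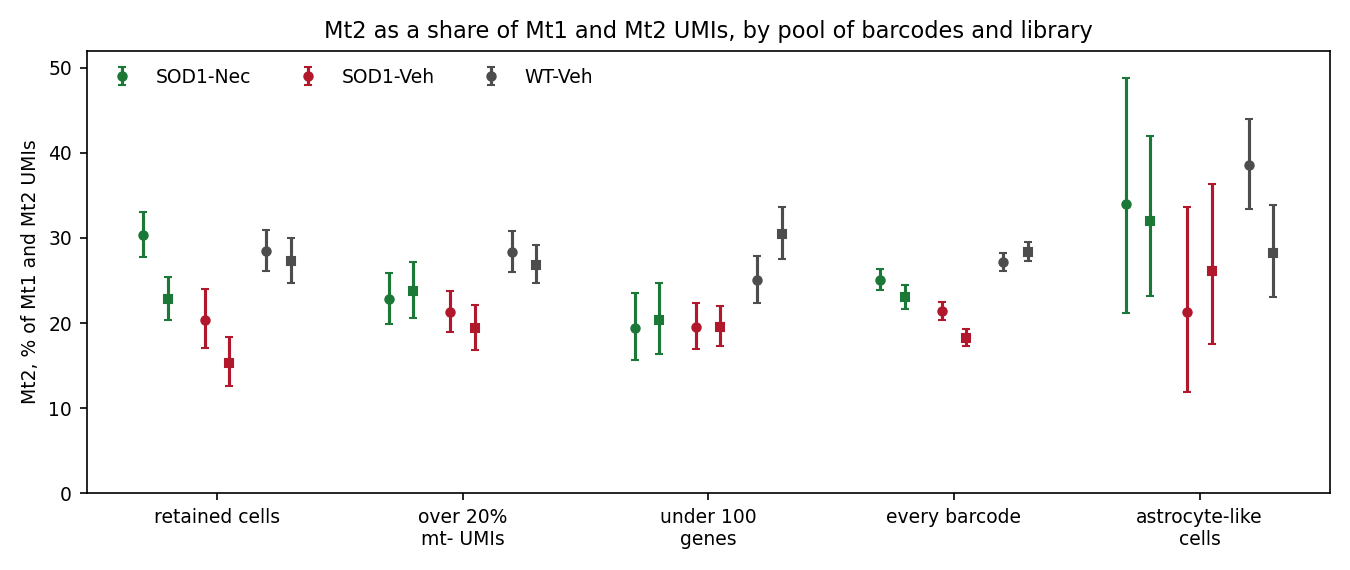
Mt2 as a percentage of Mt1 and Mt2 UMIs (y axis) per library in the sets of barcodes named on the x axis, with circles for replicate 1 and squares for replicate 2. WT-Veh lies above SOD1-Veh in retained cells, at 28.52% and 27.24% against 20.40% and 15.31%.

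Across the 14 classes with at least 20 cells, the pattern of each gene was set beside 4475 others by Pearson's r of log2 levels, as a description. The classes share libraries and free RNA. Mt1 was most like Mt2 (0.954), Gja1 (0.937), Slc1a3 (0.919), Trp53bp2 (0.902) and Mt3 (0.896). Gja1 encodes the gap junction protein connexin 43 and Slc1a3 a glutamate transporter, both known from astrocytes and both in the marker list. Mt2 was most like Gja1 (0.97), Mt1 (0.954), Mt3 (0.918), Id4 (0.897) and Abat (0.893), the last encoding GABA transaminase. Mt3 was most like Clu (0.96), which encodes the chaperone clusterin, then Ednrb (0.92), the endothelin B receptor, Kcnj16 (0.918), a potassium channel, Mt2 (0.918) and Ntrk2 (0.9), the neurotrophin receptor TrkB.

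Genes that handle the same metals or answer the same inducers were counted from 4 lists, chosen with earlier results of these data known. Over all retained cells the fit held 6 of 21 zinc-handling genes, 5 of 12 copper-handling genes, 16 of 18 glucocorticoid-induced genes and 11 of 16 targets of the antioxidant factor Nrf2. By edgeR, 0 of these passed in any of the 3 comparisons. At an unadjusted p under 0.05, 2 glucocorticoid-induced genes stood for SOD1-Veh over WT-Veh, 5 for SOD1-Nec over SOD1-Veh and 6 for SOD1-Nec over WT-Veh. Over all genes tested the share at that threshold was 10.4% for SOD1-Veh over WT-Veh, 7.06% for SOD1-Nec over SOD1-Veh and 8.46% for SOD1-Nec over WT-Veh, so the first of these counts, 2 of 16, is near the background. For the Nrf2 targets the count was 1 for SOD1-Veh over WT-Veh, 2 for SOD1-Nec over SOD1-Veh and 1 for SOD1-Nec over WT-Veh, and for zinc-handling and copper-handling genes it was 0 in each. The median log2 fold change of the glucocorticoid-induced genes was -0.41 for SOD1-Veh over WT-Veh, -0.22 for SOD1-Nec over SOD1-Veh and -0.60 for SOD1-Nec over WT-Veh, beside medians within 0.01 of 0 over all genes tested. For SOD1-Veh over WT-Veh the median was 0.13 for zinc-handling genes, 0.29 for copper-handling genes and 0.03 for Nrf2 targets. For SOD1-Nec over SOD1-Veh these medians were -0.21 for zinc-handling, -0.12 for copper-handling genes and -0.15 for Nrf2 targets, and for SOD1-Nec over WT-Veh -0.02, 0.15 and -0.09 in the same order of lists. In the 146-gene astrocyte-like fit, 1 zinc-handling gene and 1 Nrf2 target could be tested, and neither passed.

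In microglia-like cells some of the list genes changed. Ftl1, the ferritin light chain and an Nrf2 target, had 978.7 and 1509 UPM in SOD1-Nec libraries, 2452 and 3501 in SOD1-Veh libraries, and 909.6 and 1236 in WT-Veh libraries. It rose in SOD1-Veh over WT-Veh by 1.49 ± 0.23 (SE) on the log2 scale (edgeR adjusted p = 2.39e-07). Its log2 fold change for SOD1-Nec over SOD1-Veh was -1.26 ± 0.23 (edgeR adjusted p = 2.68e-05). The mouse genome holds near-identical copies of Ftl1, so the split of reads between them is uncertain. Dusp1, a glucocorticoid-induced phosphatase of MAP kinases, had 1494 and 1284 UPM in SOD1-Nec libraries, 2310 and 2687 in SOD1-Veh libraries, and 3340 and 2634 in WT-Veh libraries. Its log2 fold change was -0.87 ± 0.22 for SOD1-Nec over SOD1-Veh (edgeR adjusted p = 0.00783) and -1.10 ± 0.22 for SOD1-Nec over WT-Veh (edgeR adjusted p = 0.000152). Fkbp5, a glucocorticoid receptor co-chaperone, had 141.7 and 61.61 UPM in SOD1-Nec libraries, 247.6 and 214.4 in SOD1-Veh libraries, and 350.9 and 450.5 in WT-Veh libraries. Its log2 fold change for SOD1-Nec over WT-Veh was -2.01 ± 0.42 (edgeR adjusted p = 0.000255). Of the 9 glucocorticoid-induced genes tested in microglia-like cells, 3 fell for SOD1-Nec over WT-Veh, 1 for SOD1-Nec over SOD1-Veh and 0 for SOD1-Veh over WT-Veh, where 2 had an unadjusted p under 0.05, and none rose. Over all genes tested in these cells 2.52% fell for SOD1-Nec over WT-Veh and 1.36% for SOD1-Nec over SOD1-Veh, and 11.5% had an unadjusted p under 0.05 for SOD1-Veh over WT-Veh. Of the 4 Nrf2 targets, Ftl1 alone passed, where 1.74% of all genes rose for SOD1-Veh over WT-Veh, and of the 2 copper-handling genes none did.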

How the data were processed

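Drop-seq UMI counts were analysed in 6 libraries of mouse spinal cord. The authors deposited raw counts per gene and barcode; per the submitters' processing notes the build was mm9, and the aligner is not given in the sources used here. Barcodes with at least 200 genes and at most 20% mitochondrial UMIs were kept and Scrublet doublets removed, leaving 395 to 791 cells per library. Cells were clustered without Mt1, Mt2 and Mt3 (scanpy 1.11.5: 2000 variable genes, 30 components, 15 neighbours, Leiden resolution 1), and clusters were named from marker lists. UMIs were summed per library and fitted for all 6 libraries at once, by group (edgeR 4.0.16, R 4.3.3: TMM, filterByExpr, quasi-likelihood F test, Benjamini-Hochberg over all genes, called under 0.05). Classes were fitted with at least 10 cells in every library. The fitting code was tested on simulated data. DESeq2 1.42.0, other filters, clusterings and left-out libraries were alternatives. Levels (UPM) are per 1000000 UMIs other than haemoglobin, a denominator chosen after the data were seen. Levels and shares have exact 95% intervals. The 3 genes and the lists were chosen with earlier results of these data known. Genes named from a list were at most 2 per comparison, those with the smallest p among those called. Genes alike in pattern were the 5 with the highest r per gene, on log2(UMIs per 1000000 + 10), among genes with at least 100 UMIs.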

Additional observations from a re-analysis of the deposited data

How the results depend on the processing

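The metallothioneins were chosen by these contrasts, so a kept direction or call is no support for them, and the values only show how far a setting moves them. Mt2 for SOD1-Veh over WT-Veh was -1.61 to -0.61 on the log2 scale in 22 alternatives and passed the threshold in 8 of them. It did not pass at -1.45 without a filter on low counts, -1.55 with at least 400 genes per barcode, -1.31 with at least 100, -1.61 with at most 10% mitochondrial UMIs, -1.07 with at most 40%, -1.48 with doublets kept, -1.44 without muscle-like barcodes, -1.29 without astrocyte-like cells, -1.21 without ependymal-like cells too, -0.61 over every barcode and -0.76 in barcodes over 20%. Leaving out single libraries gave -1.61 to -1.29. For SOD1-Nec over SOD1-Veh, Mt2 passed with DESeq2 (1.23) and had the opposite sign over every barcode (-0.19) and over 20% (-0.00025). For SOD1-Nec over WT-Veh it reversed without astrocyte-like cells (0.05) and within -0.7 to 0.01 over left-out libraries. Mt1 reversed for SOD1-Veh over WT-Veh over every barcode (0.02), for SOD1-Nec over SOD1-Veh at most 40% (-0.13), every barcode (-0.55) and over 20% (-0.25), and for SOD1-Nec over WT-Veh without astrocyte-like cells (0.001). Mt3 reversed for SOD1-Veh over WT-Veh over every barcode (0.1), for SOD1-Nec over SOD1-Veh at most 40% (-0.1), every barcode (-0.72) and over 20% (-0.6), and for SOD1-Nec over WT-Veh at those settings (-0.51, -0.62 and -0.94), without the largest barcode (-0.36) and within -0.41 to 0.91 over left-out libraries. In astrocyte-like cells, calls appeared for SOD1-Veh over WT-Veh at Leiden resolution 0.5 (Mt1 -1.17, Mt2 -1.85) and at least 400 genes (Mt2 -2.22), with left-out libraries at -2.01 to -1.19 for Mt2, and for SOD1-Nec over WT-Veh at resolution 0.5 (Mt1 -1.29, Mt2 -1.64) and with classes set by marker UMIs (Mt1 -1.57, Mt2 -2.11). With barcodes assigned by marker UMIs at any mitochondrial share the values were smaller for SOD1-Veh over WT-Veh (Mt1 -0.29, Mt2 -0.79) and for Mt1 in SOD1-Nec over WT-Veh (-0.39), with Mt2 at -0.90 and no call. At resolution 0.5 the astrocyte-like cluster held 376 cells, against 116 in the main clustering. Astrocyte-like cells had merged there with erythroid-like ones, and oligodendrocyte precursors had no cluster of their own. The calls at that setting therefore come from mixed classes. In microglia-like cells the Mt2 call for SOD1-Nec over SOD1-Veh was lost with DESeq2 (1.45), no filter (1.4), at least 400 genes (1.38), at most 10% (1.17), resolution 2 (1.28), marker classes (1.39) and with left-out libraries at 1.14 to 1.64. The Mt2 share for SOD1-Nec minus SOD1-Veh was 0.305 points in barcodes under 100 genes, against 8.73 in retained cells, and for SOD1-Nec minus WT-Veh -7.93 against -1.29, with left-out libraries at -5.06 to 2.48. The cause of these shifts was not tested.

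The counts of called genes over all cells were 62, 41 and 3 for SOD1-Veh over WT-Veh, SOD1-Nec over SOD1-Veh and SOD1-Nec over WT-Veh, and ranged over 6 to 171, 0 to 62 and 1 to 61. The lowest of the first 2 came without muscle-like barcodes. Correlations used to look for pairing of same-numbered libraries were 0.181 (SOD1-Nec with SOD1-Veh), -0.266 (SOD1-Nec with WT-Veh) and -0.201 (SOD1-Veh with WT-Veh). With 2 libraries a group they cannot decide whether such libraries pair, and the tables of the 2 replicates listed different numbers of genes. With a replicate block the counts were 63, 41 and 5, Mt2 was -1.47, 1.14 and -0.33, and no metallothionein call over all cells changed. Class fits rest on few cells and few Mt2 UMIs, which limits their precision.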
